A study of Mus musculus with 30 samples.

Results

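The 10 genes described here, Zbtb16, Fkbp5, Tsc22d3, Sgk1, Klf9, Mt1, Mt2, Cdkn1a, Errfi1 and Lcn2, are induced by glucocorticoids in many tissues. They were taken by symbol from a table of estimated counts for 36558 mouse gene IDs, and all 10 were found and passed the filter on low counts in heart and in white adipose tissue. The choice used no measured value, although results of these data were known when it was made.

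Male C57BL/6J mice gave the libraries, from heart and from white adipose tissue. Each mouse was injected with an AAV8 vector, a capsid that infects hepatocytes well, with either F11 (coagulation factor XI) or GFP (green fluorescent protein). Heart gave 7 F11 libraries and 6 GFP libraries, and adipose tissue gave 8 F11 libraries and 8 GFP libraries. A further GFP heart library in the labels was not analysed here. Mice of both vectors had a high-fat diet (HFD) and l-NAME, which blocks nitric oxide synthesis, over 7 weeks, and were 15 weeks old at collection, so there is no group without the diet, without l-NAME or without a vector. The labels do not say that each library comes from a different mouse, so p-values reflect only the variation among these samples, which could be technical. The labels give neither the promoter of the vector, its dose and route, the adipose depot nor the hour of collection, and they name no corticosterone measurement.

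The glucocorticoid receptor, encoded by Nr3c1, waits in the cytoplasm in a complex with the Hsp90 chaperone and moves to the nucleus when it binds corticosterone, the main glucocorticoid of mice. On DNA it binds glucocorticoid response elements and raises the transcription of genes that act on metabolism, inflammation and its own signalling. Corticosterone follows a daily rhythm and rises with stress, and cardiomyocytes and adipocytes both carry the receptor. The members differ in what they do: Fkbp5 is a co-chaperone that lowers the hormone affinity of the receptor, Zbtb16, Klf9 and Tsc22d3 act on transcription, Sgk1, Errfi1 and Cdkn1a act on kinase signalling and the cell cycle, Mt1 and Mt2 bind metals, and Lcn2 is secreted.

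On GRCm38 with the GENCODE vM21 annotation, Zbtb16 lies on chromosome 9 from 48654297 to 48836222 (minus strand) and Fkbp5 on chromosome 17 from 28399094 to 28517527 (minus strand). Tsc22d3 lies on chromosome X from 140539528 to 140600659 (minus strand), Klf9 on chromosome 19 from 23141226 to 23168134 (plus strand) and Sgk1 on chromosome 10 from 21882184 to 21999903 (plus strand). Errfi1 lies on chromosome 4 from 150853919 to 150868892 (plus strand), Cdkn1a on chromosome 17 from 29090976 to 29100727 (plus strand) and Lcn2 on chromosome 2 from 32384633 to 32388252 (minus strand). Mt1 and Mt2 lie on the plus strand of chromosome 8, from 94179082 to 94180327 and from 94172664 to 94173568, with 5513 bases between them. All 10 are protein coding. Annotated genes on the opposite strand overlap the spans of Fkbp5, Mt2, Cdkn1a and Errfi1, introns included. Whether their exons overlap was not examined, and no strand setting is given in the sources used here. Whether their reads can be told apart from those of the member is therefore not known.

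Promoter sequence was matched for 9 of the 10 members in RefSeq on GRCm38.p6, with 18 start sites in all and 250 bases before and 50 bases after each. The 9 are all members but Zbtb16. Both strands were searched for 4 motifs: the full glucocorticoid response element (AGAACA and TGTTCT with 3 bases between them), the single hexamer AGAACA, the core of the metal response element TGCACNC or TGCGCNC, and the E-box CACGTG bound by the circadian activators CLOCK and BMAL1. A full element always contains the hexamer on both strands. The full element was found in 3 of 32851 RefSeq windows (0.00913%), and 1 of those 3 belongs to a start site of Sgk1. The hexamer was found in 6233 windows, the metal core in 25.7% and the E-box in 7.15%. Below are the 250 bases upstream of 4 start sites, with motif matches in capitals. Sgk1 is shown for its full element, Mt1 and Mt2 as neighbours with metal cores, and Fkbp5 as the member with the largest fold change in heart. The stretches are chr10:21993640-21993889 (plus strand) for Sgk1, chr8:94178839-94179088 (plus strand) for Mt1, chr8:94172368-94172617 (plus strand) for Mt2 and chr17:28486150-28486399 (minus strand) for Fkbp5.
Sgk1: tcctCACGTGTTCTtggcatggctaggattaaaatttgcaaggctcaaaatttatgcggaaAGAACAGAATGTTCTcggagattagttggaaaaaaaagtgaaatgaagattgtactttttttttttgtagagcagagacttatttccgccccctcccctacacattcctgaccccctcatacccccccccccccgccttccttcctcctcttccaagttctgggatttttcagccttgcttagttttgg
Mt1: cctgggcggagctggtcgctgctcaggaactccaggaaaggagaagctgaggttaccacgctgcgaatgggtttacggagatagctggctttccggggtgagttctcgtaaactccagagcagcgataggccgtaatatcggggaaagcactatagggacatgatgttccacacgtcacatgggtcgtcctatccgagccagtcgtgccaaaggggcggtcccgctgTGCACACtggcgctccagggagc
Mt2: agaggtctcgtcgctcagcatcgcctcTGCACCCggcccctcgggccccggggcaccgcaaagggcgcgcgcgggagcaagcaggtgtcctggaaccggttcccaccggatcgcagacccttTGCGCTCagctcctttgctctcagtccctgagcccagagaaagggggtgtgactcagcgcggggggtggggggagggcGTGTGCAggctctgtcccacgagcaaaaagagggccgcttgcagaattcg
Fkbp5: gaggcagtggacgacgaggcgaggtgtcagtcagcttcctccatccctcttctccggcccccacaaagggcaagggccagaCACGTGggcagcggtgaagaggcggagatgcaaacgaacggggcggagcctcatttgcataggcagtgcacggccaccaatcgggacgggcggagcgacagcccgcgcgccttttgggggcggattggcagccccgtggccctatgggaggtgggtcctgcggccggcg

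In the Sgk1 sequence the full element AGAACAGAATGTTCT begins 189 bases before the start site, and an E-box that begins 246 bases before it overlaps a separate hexamer. Sgk1 has 6 RefSeq start sites, and the estimated counts are per gene, so the levels given for Sgk1 do not belong to this site alone. The Mt1 sequence holds 1 metal core and its window has 3, the other 2 lying after the start site. The Mt2 sequence holds 3 and its window has 4. Fkbp5 has an E-box that begins 169 bases before its start site and no hexamer in the window. No match was found for Klf9, Cdkn1a, Errfi1 or Lcn2, which says only that these letters are not in these windows. A match is a description of the sequence and not evidence that a factor binds there.

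Library totals ran from 28064802 to 33022539 estimated counts (F11 hearts), 25751607 to 30591023 (GFP hearts), 16755479 to 26329117 (F11 adipose tissue) and 15949550 to 22525275 (GFP adipose tissue). Tissue labels held: 9 cardiomyocyte markers summed to 43990 to 56870 CPM (counts scaled to library size) in hearts, and 9 white adipocyte markers to 13630 to 25890 CPM in adipose libraries. The cardiomyocyte sum did not overlap between vectors, at 50220 to 56870 CPM in F11 hearts and 43990 to 47910 CPM in GFP hearts. Its members Myh6 and Actc1 had log2 changes of 0.30 (adjusted p = 0.00192) and 0.27 (adjusted p = 0.171), F11 over GFP. None of the other markers of the 16 cell type lists passed the test in heart, among 67 marker entries tested. Of the other lists, mesothelial markers came close to separating the vectors, at 4.95 to 11.4 CPM in F11 hearts and 11.3 to 18.4 CPM in GFP hearts. Some libraries carried transcripts of other tissues. Red cell markers reached 3708 CPM in F11 heart L40 and 4236 CPM in GFP heart L8, against at most 1050 CPM in the other hearts. Epididymis and testis markers summed to 7386 CPM in F11 adipose library L142 and to at most 17.98 CPM in the other adipose libraries. Cardiomyocyte markers summed to 8814 CPM in GFP adipose library L140 and to at most 180.2 CPM elsewhere in adipose tissue. Liver markers ran from 143.2 to 6585 CPM in F11 adipose tissue and from 187.4 to 7094 CPM in GFP adipose tissue. Macrophage markers varied too, from 1219 to 7539 CPM in F11 adipose tissue and from 855.8 to 6350 CPM in GFP adipose tissue. The part of these transcripts in the members' values was not tested beyond the fits without the libraries, given where they matter. No group of libraries was left out for its macrophage markers. In such bulk samples fewer cells of a type and less RNA per cell cannot be told apart.

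In heart, the comparison asks how F11 vector hearts differ from GFP vector hearts. Zbtb16 and Fkbp5 stood apart from the other members, at 2.68-fold and 2.76-fold, but only Zbtb16 passed the test. Among the 14684 genes tested with edgeR's quasi-likelihood test, 128 were called (0.872%), 76 higher (0.518%) and 52 lower (0.354%), at a Benjamini-Hochberg adjusted p under 0.05. Of the 10 members 1 was called, Zbtb16, which was higher. DESeq2 called 373 genes in all and 3 members, Zbtb16, Fkbp5 and Errfi1 (lower). limma voom called 201 genes in all, with Zbtb16 the only member. At an unadjusted p under 0.05 there were 6 of 10 members, against 12.5% of all genes tested. The log2 fold change was positive for 7 members and negative for 3, with a median of 0.29, beside -0.01 over all genes tested. Its median size regardless of sign was 0.46 for the members and 0.07 for all genes.

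**Figure D1:**
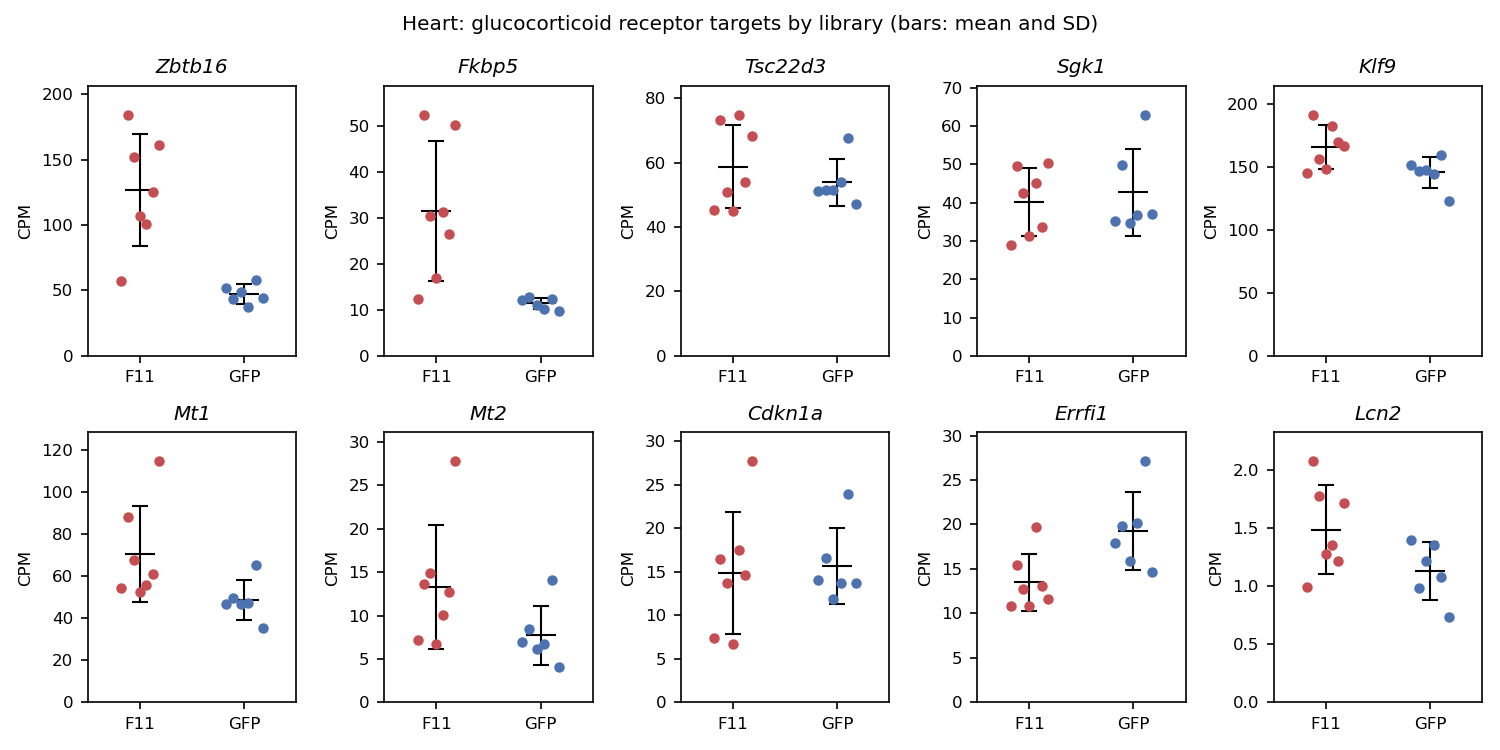
Level of each of the 10 genes in heart, in CPM on a linear axis that starts at 0, for 7 F11 libraries (left, red) and 6 GFP libraries (right, blue); each point is a library, the long bar the mean and the whiskers the SD. For Zbtb16 and Fkbp5, 6 of the 7 F11 points lie above every GFP point, while the groups of the other genes overlap more.

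Fkbp5, the co-chaperone that feeds back on the receptor, ranged from 12.28 to 52.31 CPM with a median of 30.45 CPM in F11 hearts, against 9.735 to 12.82 CPM with a median of 11.54 CPM in GFP hearts. Of the 7 F11 hearts, 6 lay above the highest GFP heart and 1, L31, lay within the GFP range. The F11 hearts were also spread more widely, with a coefficient of variation of 48.5% beside 11.1% in GFP hearts. Fkbp5 averaged 31.39 ± 15.23 CPM in F11 hearts and 11.39 ± 1.26 CPM in GFP hearts (SD, n = 7 and 6), a log2 change of 1.46 (SE 0.32). Its unadjusted p was 0.000806 and its adjusted p 0.0614, outside the threshold. Without L31 the adjusted p was 0.0155, without L36 it was 0.0481, and over all 21 alternatives it ran from 0.00035 to 0.148, with the lowest given by DESeq2.

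Zbtb16 encodes a zinc finger repressor of transcription, also known as PLZF. It ranged from 57.39 to 184.2 CPM with a median of 125.4 CPM in F11 hearts, against 37.19 to 58.05 CPM with a median of 46.59 CPM in GFP hearts. F11 heart L31 was again the exception, within the GFP range, and the other 6 F11 hearts were at 100.7 CPM or more. The means were 126.9 ± 42.8 CPM in F11 hearts and 47.29 ± 7.32 CPM in GFP hearts (SD, n = 7 and 6). Zbtb16 rose by 1.42 on the log2 scale (SE 0.24, adjusted p = 0.0161), and the adjusted p ran from 5.97e-07 to 0.0475 over 21 alternatives.

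Klf9, a Krüppel-like transcription factor, had the smallest coefficient of variation of the 10 genes in hearts of either vector. It measured 145.7 to 191.7 CPM in F11 hearts (median 167.3 CPM) and 123.0 to 159.7 CPM in GFP hearts (median 147.7 CPM). Of the F11 hearts, 4 lay above every GFP heart. The log2 fold change was 0.19 (SE 0.07, unadjusted p = 0.014, adjusted p = 0.246). Tsc22d3, which encodes the anti-inflammatory leucine zipper protein GILZ, measured 44.89 to 74.77 CPM in F11 hearts (median 53.97 CPM) and 47.01 to 67.68 CPM in GFP hearts (median 51.43 CPM). The F11 hearts fell on both sides of the GFP range, 3 above it and 2 below it, and the log2 fold change was 0.13 (SE 0.14, adjusted p = 0.781).

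The members that act on signalling, Sgk1, Cdkn1a and Errfi1, all had negative log2 fold changes, none of which passed edgeR's test. Sgk1, a kinase that regulates ion channels and transporters, measured 28.84 to 50.24 CPM in F11 hearts (median 42.52 CPM) and 34.55 to 62.85 CPM in GFP hearts (median 36.84 CPM), with a log2 change of -0.09 (SE 0.19, adjusted p = 0.906). Cdkn1a, the cyclin-dependent kinase inhibitor that is also a p53 target, measured 6.679 to 27.67 CPM in F11 hearts (median 14.68 CPM) and 11.85 to 23.97 CPM in GFP hearts (median 13.92 CPM), with a log2 change of -0.07 (SE 0.31, adjusted p = 0.956). The groups overlapped for both, and both signs depend on single libraries. Without GFP heart L8 the values were 0.06 for Sgk1 and 0.09 for Cdkn1a. Errfi1, a feedback inhibitor of the epidermal growth factor receptor, had the most F11 hearts below the GFP range. It ranged from 10.87 to 19.73 CPM with a median of 12.71 CPM in F11 hearts, against 14.62 to 27.09 CPM with a median of 18.87 CPM in GFP hearts. Of the 7 F11 hearts, 5 lay below the lowest GFP heart. The log2 fold change was -0.51 (SE 0.17, unadjusted p = 0.00983, adjusted p = 0.207), and DESeq2 gave an adjusted p of 0.0393.

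The metallothioneins Mt1 and Mt2 encode small zinc- and copper-binding proteins and lie next to each other. Mt1 measured 52.41 to 114.7 CPM in F11 hearts (median 61.08 CPM) and 35.36 to 65.29 CPM in GFP hearts (median 47.23 CPM). Mt2 measured 6.742 to 27.75 CPM in F11 hearts (median 12.7 CPM) and 4.029 to 14.07 CPM in GFP hearts (median 6.84 CPM). All 7 F11 hearts lay above the GFP median for Mt1, and 6 did for Mt2. The highest values of both genes in each group were those of L40 among F11 hearts and L8 among GFP hearts, the pair with the most red cell transcripts. The log2 fold changes were 0.54 for Mt1 (SE 0.21, adjusted p = 0.302) and 0.79 for Mt2 (SE 0.37, adjusted p = 0.415), and without L8 and L40 they were 0.48 (adjusted p = 0.183) and 0.75 (adjusted p = 0.234).

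Lcn2, which encodes the secreted lipocalin that binds bacterial siderophores, was the least abundant member in heart. It measured 0.991 to 2.08 CPM in F11 hearts (median 1.36 CPM) and 0.733 to 1.40 CPM in GFP hearts (median 1.15 CPM), and 3 F11 hearts lay above every GFP heart. The log2 fold change was 0.40 (SE 0.19, unadjusted p = 0.0477, adjusted p = 0.395). None of the 10 genes separated the groups completely in heart. Complete separation was seen for 0.586% of genes tested with F11 hearts higher and for 0.484% with F11 hearts lower.

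A few heart libraries held the lowest or highest value of many members. Among F11 hearts L31 had the lowest value of 6 members (Zbtb16, Fkbp5, Sgk1, Klf9, Errfi1 and Lcn2) and L36 of the other 4, while the highest values were spread over L33 (4 members), L40 (4) and L38 (2). Among GFP hearts L8 had the highest value of 8 members, all but Fkbp5 and Lcn2, and L9 the lowest of 7. Correlations were computed on log2(CPM + 1) after the mean of each group was subtracted, so that a mean difference between vectors does not enter. In heart all 45 pairs of members had a positive Pearson r over 13 libraries, with a median of 0.661, beside a median of -0.001 over all pairs of tested genes, of which 49.8% were positive. Without the red-cell-rich hearts L8 and L40 all 45 pairs stayed positive, with a median of 0.692, but 8 pairs had an adjusted permutation p for r under 0.05, against 24 with all 13 libraries. Among those lost were Mt2 with Cdkn1a (adjusted p = 0.0742) and Zbtb16 with Fkbp5 (adjusted p = 0.0593). Their r values were 0.737 and 0.849 over these 11 libraries, against 0.875 and 0.852 over 13, so the second hardly changed. Mt1 with Lcn2 passed only without L8 and L40, at r = 0.833 (adjusted permutation p = 0.0317), against 0.636 (adjusted 0.054) with all 13. The libraries share depth, RNA quality and cell makeup across genes, and the part of these in the correlations was not tested.

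**Figure D2:**
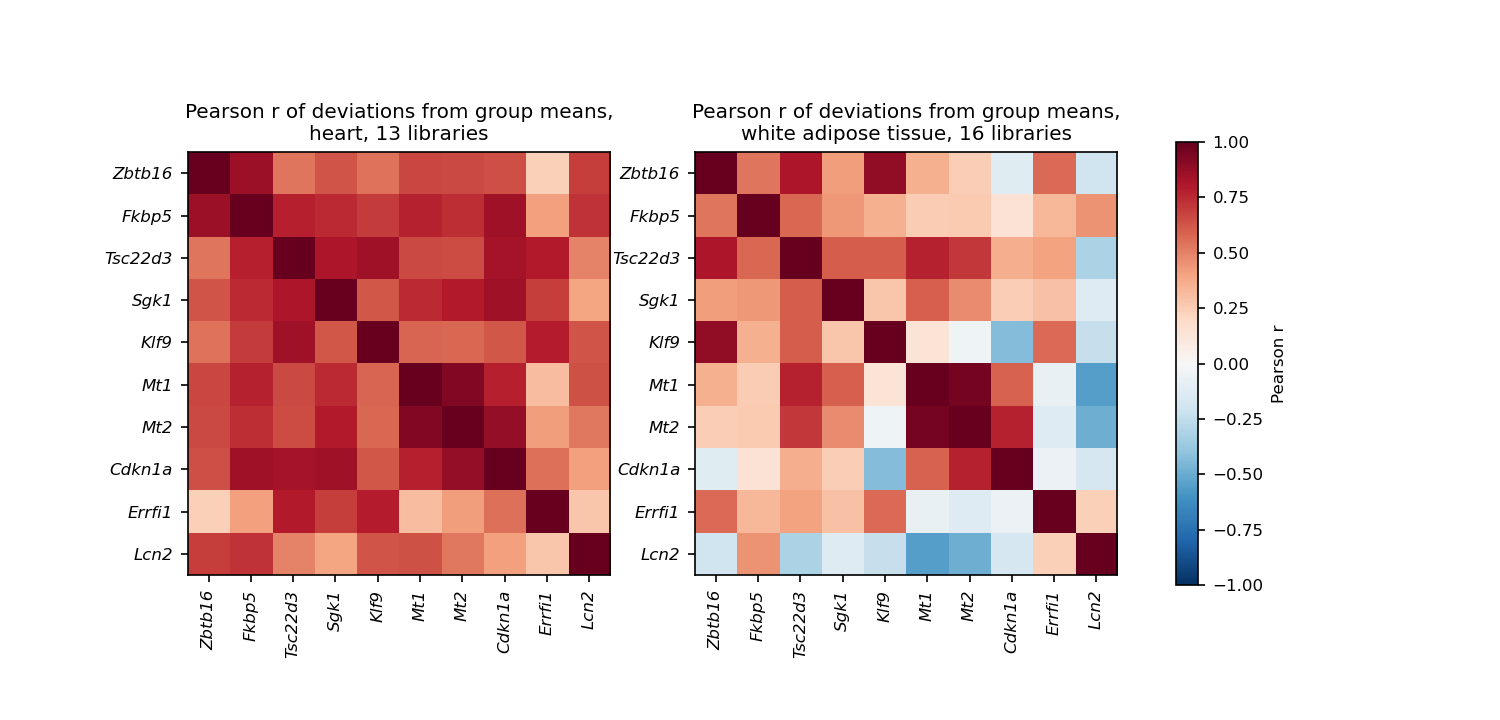
Pearson r between pairs of the 10 genes, over 13 heart libraries (left) and 16 adipose libraries (right), on log2(CPM + 1) with group means subtracted; the colour scale runs from -1 (blue) to 1 (red), and each diagonal is 1 by construction. All 45 heart pairs are positive, while 32 of 45 adipose pairs are.

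The closest pair in heart was Mt1 with Mt2, at r = 0.927 and Spearman's rho = 0.923 (n = 13, permutation p = 3e-05 and 7e-05, adjusted over 45 pairs 0.00135 and 0.00315). Without the 2 libraries farthest from the Mt1 median, r was 0.816. Next came Mt2 with Cdkn1a, at r = 0.875 and rho = 0.764 (permutation p = 0.00074 and 0.00538, adjusted 0.00832 and 0.0269), and r = 0.737 without the 2 farthest libraries. Zbtb16 with Fkbp5 had r = 0.852 and rho = 0.659 (permutation p = 0.00224 and 0.0383, adjusted 0.0101 and 0.0638). That relation leaned on 2 libraries, since r was 0.594 without F11 hearts L31 and L33. The lowest values were 0.239 for Zbtb16 with Errfi1, 0.275 for Errfi1 with Lcn2 and 0.307 for Mt1 with Errfi1, with permutation p = 0.453, 0.385 and 0.329 and adjusted values of 0.453, 0.394 and 0.344. Their rho values were 0.159, 0.434 and 0.522 (permutation p = 0.619, 0.158 and 0.084, adjusted 0.619, 0.182 and 0.122), and r without the 2 farthest libraries was -0.10, 0.638 and 0.388.

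The 3 genes most alike to each member over the heart libraries were listed by the same r, as a description. For Fkbp5 they were Fam107a (r = 0.966), Sult1a1 (0.944) and Map3k6 (0.944). For Tsc22d3 the first was Ddit4 (0.952), an inhibitor of mTOR signalling, and for Errfi1 the second was Cebpd (0.839). These 5 genes are on a list of 37 other glucocorticoid-induced genes, so 5 of the 30 places went to that list, which makes up 0.238% of the genes tested. The other closest genes were Lox for Zbtb16 (0.902), Rassf4 for Sgk1 (0.938), Mylip for Klf9 (0.909), Mbd1 for Mt2 (0.929), Bcl2l1 for Cdkn1a (0.966) and Eya2 for Lcn2 (0.958). Mt2 was the closest gene to Mt1. The first neighbour of Errfi1 was Sphk1 (0.87), a sphingosine kinase.

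Among the other glucocorticoid-induced genes, 35 of 37 were tested in heart. Higher in F11 hearts were 2, none was lower and 33 were not called, where 0.872% of all genes tested were called. An unadjusted p under 0.05 was seen for 14 of the 35 (40%), against 12.5% of all genes. The log2 fold change was positive for 22 and negative for 13, where 47.5% of all genes were positive. Its median was 0.18, beside -0.01 over all genes. DESeq2 called 7 and limma voom 2. The genes called by edgeR were Hif3a, a hypoxia-inducible factor subunit, at 2.60 ± 0.776 CPM in F11 hearts and 0.859 ± 0.109 CPM in GFP hearts (SD, n = 7 and 6), a log2 change of 1.59 (SE 0.20, adjusted p = 0.000396), and Cry2. Cry2 is a repressor of the circadian clock, was also on a list of clock genes, and had a log2 change of 0.40 (SE 0.06, adjusted p = 0.00111). The genes most alike to Fkbp5 did not pass the test, at 1.23 for Map3k6 (SE 0.27, adjusted p = 0.0606), 1.17 for Fam107a (SE 0.35, adjusted p = 0.171) and 0.52 for Sult1a1 (SE 0.17, adjusted p = 0.19). Ddit4 was at -0.14 (SE 0.40, adjusted p = 0.932) and Pdk4, a brake on pyruvate oxidation, at -0.32 (SE 0.25, adjusted p = 0.654). Pdk4 is named after its value was seen.

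**Figure D3:**
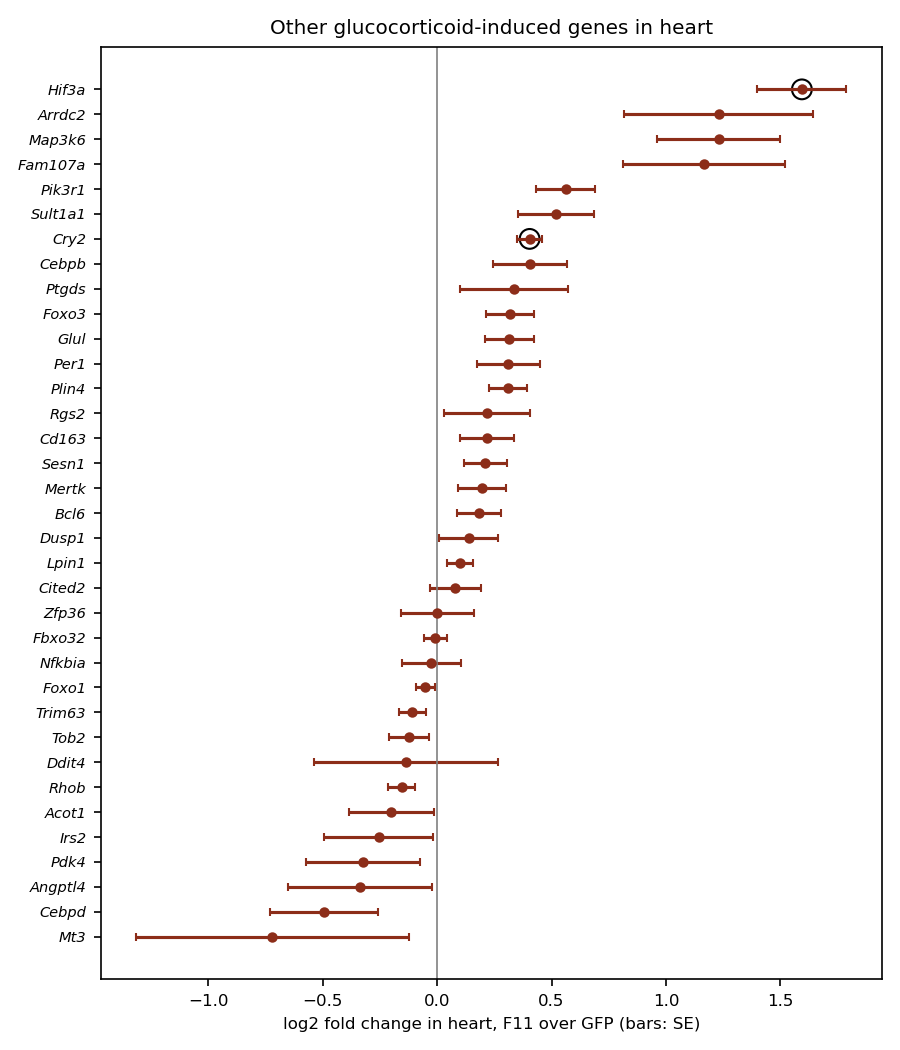
Log2 fold change in heart, F11 over GFP, of the 35 tested genes on the list of other glucocorticoid-induced genes, ordered by value; points are edgeR estimates, whiskers the SE, and rings mark genes past an adjusted p of 0.05. Only Hif3a and Cry2 carry a ring, and values run on both sides of 0.

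The receptor's own transcript did not pass the test. Nr3c1 averaged 87.5 ± 9.47 CPM in F11 hearts and 95.9 ± 3.32 CPM in GFP hearts (SD, n = 7 and 6), a log2 change of -0.13 (SE 0.06, adjusted p = 0.397). The mineralocorticoid receptor Nr3c2, which also binds corticosterone, averaged 24.4 ± 2.34 CPM in F11 hearts and 20.4 ± 1.30 CPM in GFP hearts, a log2 change of 0.26 (SE 0.06, adjusted p = 0.0593). Of 24 genes of receptors, chaperones, cofactors and hormone metabolism, 23 were tested, and DESeq2 and limma voom called 4 each. With edgeR 2 were higher, none was lower and 21 were not called, where 0.872% of all genes tested were called. The called pair was the coactivator Ncoa3, at 0.27 on the log2 scale (SE 0.04, adjusted p = 0.0047), and Smarca4, the ATPase of a chromatin remodelling complex, at 0.19 (SE 0.03, adjusted p = 0.0111). Hsd11b1, which regenerates active hormone inside cells, was at -0.10 (SE 0.07, adjusted p = 0.643). Both receptors and Hsd11b1 were named after their values were seen.

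Genes that glucocorticoids hold down are mainly inflammatory. Of 15 listed, 12 were tested, 0 were called by edgeR, by DESeq2 or by limma voom, and 1 had an unadjusted p under 0.05. The log2 fold change was negative for 9 and positive for 3, with a median of -0.19, where 47.5% of all genes tested were positive. Macrophage markers in heart had 8 negative and 2 positive values, with a median of -0.07. The lowest p-values were those of Mmp9, a matrix protease of neutrophils and macrophages, at -1.01 (SE 0.29, adjusted p = 0.118), and Cxcl10, a chemokine, at -0.79 (SE 0.49, adjusted p = 0.545).

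Several members answer to other regulators too, so genes of those pathways were set beside them. None was called by edgeR in heart. Among 7 tested genes of the metal response, 1 had an unadjusted p under 0.05, the zinc importer Slc39a14 at 0.25 (SE 0.06, adjusted p = 0.0614), and DESeq2 and limma voom each called 1 gene, while the zinc exporter Slc30a1 was at 0.12 (SE 0.06, adjusted p = 0.401). Among 12 tested p53 targets 1 was under 0.05 unadjusted and none was called by any of these tools, with Aen at 0.18 (SE 0.06, adjusted p = 0.178) and Eda2r at -0.24 (SE 0.12, adjusted p = 0.403). Among 10 tested acute phase and NF-kB genes 1 was under 0.05 unadjusted, haptoglobin (Hp) at -1.94 (SE 0.54, adjusted p = 0.126), followed by Lrg1 at 0.21 (SE 0.11, adjusted p = 0.463), and DESeq2 called 1 and limma voom 0. Hp was highest in GFP heart L2, at 5.48 CPM, and that library held 188.2 CPM of summed liver markers, against at most 3.07 CPM in F11 hearts and 7.67 CPM in the other GFP hearts. The 7 tested white adipocyte markers had a median log2 fold change of -1.10 in heart, with 3 under 0.05 unadjusted and none called, and their sums were 343 to 557 CPM in F11 hearts and 350.5 to 522.9 CPM in GFP hearts. The part of either in the value of Hp was not tested. Among 14 tested genes of growth factor feedback and the immediate early response 2 were under 0.05 unadjusted and no tool called one, with Spry2 at 0.18 (SE 0.06, adjusted p = 0.159) and Ier2 at 0.26 (SE 0.11, adjusted p = 0.356). Among 14 tested paralogs of the members 2 were under 0.05 unadjusted, Klf13 at 0.42 (SE 0.09, adjusted p = 0.0534) and Klf15 at 0.28 (SE 0.08, adjusted p = 0.107), and DESeq2 called 2 and limma voom 0. Klf15 is itself a known glucocorticoid target.

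Clock genes were listed because corticosterone and the clock share a daily rhythm. Of 12 genes that CLOCK and BMAL1 drive, 8 were higher in F11 hearts and 4 were not called, where 0.518% of all genes tested were higher. Their median log2 fold change was 0.59. The lowest p-values were those of Usp2 (0.56), Ciart (1.39), Tef (0.61), Dbp (0.94), Per2 (1.32) and Cry2 (0.40), with adjusted p from 6.96e-05 to 0.00111. Of 5 genes of the opposite phase, 3 were lower, where 0.354% of all genes tested were lower. The 3 were Arntl at -1.68, Clock at -0.40 and Npas2 at -1.05, with adjusted p of 0.000139, 0.00167 and 0.00577. Cry2 and Per1 each count in both the clock list and the glucocorticoid list. Whether the hour of collection differed between vectors cannot be told from the labels, and its part in the members' values was not tested.

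In white adipose tissue none of the 10 members passed the test. Of 15229 genes tested 0 were called (0.0%) by edgeR and by limma voom and 11 by DESeq2, and 638 had an unadjusted p under 0.05 (4.19%). Of the members 1 was under 0.05 unadjusted, and DESeq2 and limma voom called none. The median log2 fold change of the members was 0.05, beside 0.00 over all genes. The groups overlapped for every member, where complete separation with F11 higher was seen for 0.0197% of genes tested and with F11 lower for 0.0%.

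**Figure D4:**
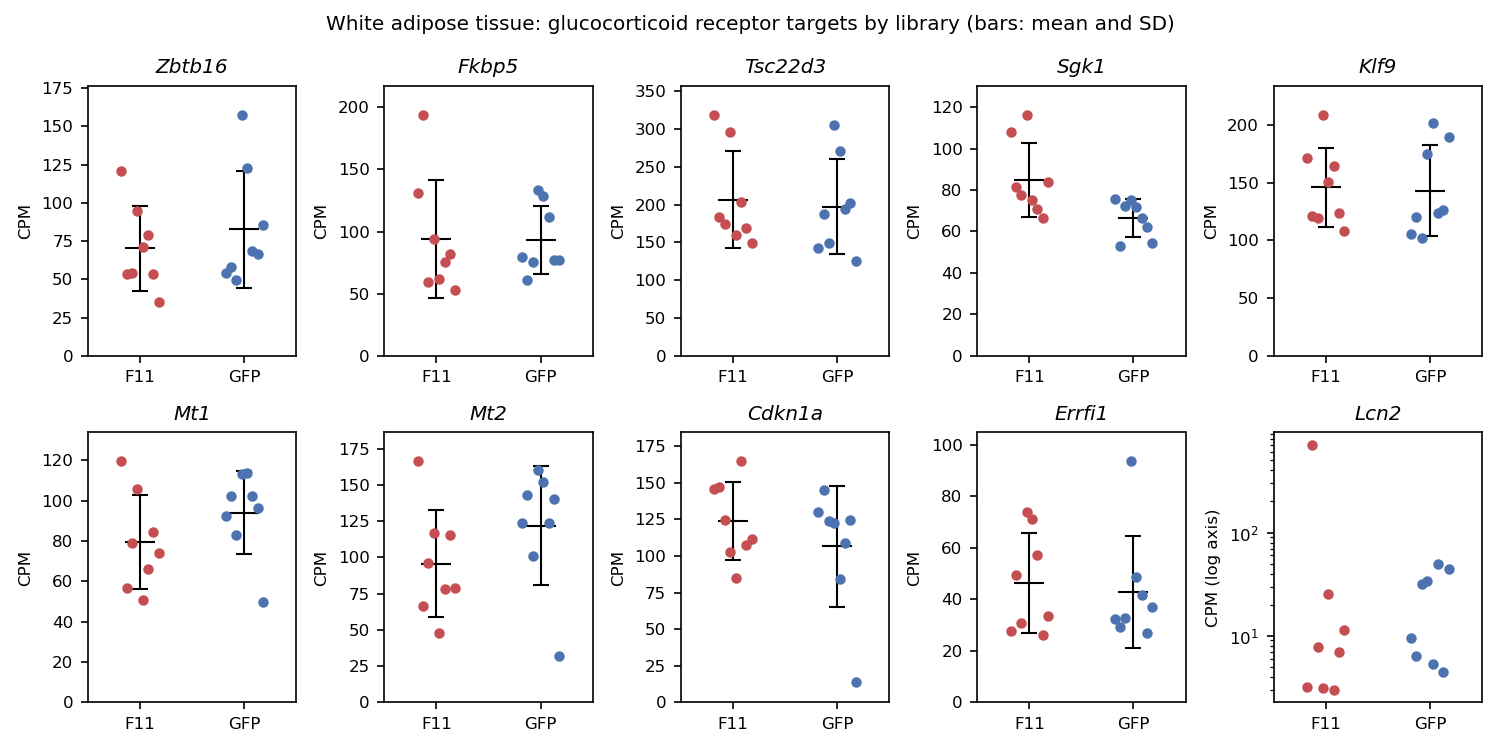
Level of each of the 10 genes in white adipose tissue, in CPM, for 8 F11 libraries (left, red) and 8 GFP libraries (right, blue); each point is a library, with the mean and SD as bars, except for Lcn2, which is on a log axis without bars. The vector groups overlap in every panel, with the F11 library L142 at 708.5 CPM of Lcn2 far above the rest and the GFP library L140 lowest for Mt2 and Cdkn1a.

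Sgk1 had the lowest p-value of the members in adipose tissue. It ranged from 66.27 to 116.2 CPM with a median of 79.44 CPM in F11 adipose tissue, against 52.98 to 75.76 CPM with a median of 69.28 CPM in GFP adipose tissue. Of the 8 F11 libraries 5 lay above the highest GFP library, and L141 and L144 were the highest of them. Sgk1 averaged 84.84 ± 17.78 CPM in F11 adipose tissue and 66.42 ± 9.01 CPM in GFP adipose tissue (SD, n = 8 each), a log2 change of 0.36 (SE 0.12, unadjusted p = 0.00862, adjusted p = 1). The gene closest to Sgk1 over the adipose libraries was Rhob (r = 0.892), which encodes a small GTPase and is on the list of other glucocorticoid-induced genes.

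Zbtb16 and Fkbp5 did not pass in adipose tissue, and their F11 libraries lay on both sides of the GFP median. Zbtb16 measured 35.08 to 121 CPM in F11 adipose tissue (median 62.8 CPM) and 49.43 to 157.5 CPM in GFP adipose tissue (median 67.7 CPM), with a log2 change of -0.23 (SE 0.28). Fkbp5 measured 53.3 to 193.9 CPM in F11 adipose tissue (median 78.9 CPM) and 61.13 to 133.7 CPM in GFP adipose tissue (median 78.6 CPM), with a log2 change of 0.02 (SE 0.26). The highest Fkbp5 value was that of L142, the library with epididymis and testis transcripts, and without L142 the log2 fold change of Fkbp5 was -0.225. The other log2 fold changes were 0.07 for Tsc22d3 (SE 0.21), 0.03 for Klf9 (SE 0.17), -0.24 for Mt1 (SE 0.18), -0.35 for Mt2 (SE 0.28), 0.22 for Cdkn1a (SE 0.31) and 0.12 for Errfi1 (SE 0.29). GFP library L140, with the cardiomyocyte transcripts, had the lowest Tsc22d3, Mt1, Mt2 and Cdkn1a of its group, at 14.19 CPM of Cdkn1a where the other GFP libraries held 83.99 to 144.9 CPM. Without L140 the log2 fold change of Cdkn1a was 0.05 and that of Mt2 was -0.49. F11 library L148 had the highest macrophage sum, at 7539 CPM, and the lowest white adipocyte sum, at 13630 CPM. It held the lowest Zbtb16, Fkbp5, Tsc22d3 and Klf9 of its group. GFP library L133 had the highest macrophage sum of its group, at 6350 CPM, and was lowest for no member. The part of macrophage content in these values was not tested.

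Lcn2 had the widest spread of any member. It ran from 2.97 to 708.5 CPM in F11 adipose tissue (median 7.38 CPM) and from 4.44 to 49.1 CPM in GFP adipose tissue (median 20.7 CPM). The top value was that of L142, and the next F11 library was at 25.51 CPM. The fitted log2 fold change was 2.09 (SE 1.19) with L142 and -1.40 without it. DESeq2 gave -1.29 after it had replaced the L142 count of 13520 by 267, as it does by default for counts it takes for outliers, and limma voom gave -0.72 with a quality weight of 0.363 for L142. The genes most alike to Lcn2 over the adipose libraries were Tjp3 (r = 0.963), Rtkn (0.956) and Ocln (0.949), and Tjp3 and Ocln encode proteins of epithelial tight junctions. These r values include L142 and were not computed without it, so they may rest on that library.

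In adipose tissue 32 of the 45 member pairs correlated positively, with a median r of 0.331 over 16 libraries, beside -0.01 over all pairs of genes tested. Mt1 with Mt2 was closest, at r = 0.958 and rho = 0.962 (permutation p = 1e-05 for both, the smallest that the permutations can give, adjusted over 45 pairs 0.000225 and 0.00045). Zbtb16 with Klf9 had r = 0.884 and rho = 0.912 (permutation p = 1e-05 and 3e-05, adjusted 0.000225 and 0.000675), and Zbtb16 with Tsc22d3 had r = 0.805 and rho = 0.721 (permutation p = 0.00042 and 0.00358, adjusted 0.00473 and 0.0322). Without the 2 farthest libraries these r values were 0.94, 0.943 and 0.656. Without the 2 libraries L140 and L142, 30 of the 45 pairs were positive with a median of 0.396, and 10 pairs passed the adjusted threshold for r, against 5 with all libraries. Zbtb16 with Fkbp5 was then at r = 0.849 (adjusted permutation p = 0.00207), against 0.536 (adjusted 0.118) with all libraries. At the other end were Mt1 with Lcn2 at -0.55, Mt2 with Lcn2 at -0.49 and Klf9 with Cdkn1a at -0.44, with rho of -0.45, -0.47 and -0.39. Their permutation p-values were 0.032, 0.0451 and 0.0876 for r (adjusted 0.118, 0.135 and 0.219) and 0.0891, 0.077 and 0.126 for rho (adjusted 0.231, 0.231 and 0.247). Without the 2 farthest libraries the r values were -0.57, -0.57 and -0.49, and without L140 and L142 they were -0.45, -0.54 and -0.26. The 30 places for the most alike genes held 1 gene of the list of other glucocorticoid-induced genes, Rhob, and that list makes up 0.217% of genes tested. For Klf9 the closest were Slc9b2 (0.962) and the clock repressor Per2 (0.958). Many genes shared the pattern of Klf9, since r = 0.881 with Cry2 ranked 240 and r = 0.503 with Arrdc2 ranked 3644 among genes tested. For Zbtb16, r = 0.553 with Arrdc2 ranked 2732, so a high r with either gene is not particular to the members. Adipose libraries also share depth, RNA quality and cell makeup across genes, and the part of these was not tested.

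Of the other glucocorticoid-induced genes 33 were tested in adipose tissue, 0 were called by edgeR, DESeq2 or limma voom, and 3 were under 0.05 unadjusted, with 17 positive and 16 negative. The lowest p-values were those of Ddit4 at 0.70 (SE 0.27, unadjusted p = 0.0184) and Angptl4, an inhibitor of lipoprotein lipase, at -0.28 (SE 0.11, unadjusted p = 0.0192). Ddit4 averaged 51.5 ± 23.7 CPM in F11 adipose tissue and 31.8 ± 8.80 CPM in GFP adipose tissue (SD, n = 8 each). Of 24 receptor, chaperone and cofactor genes 0 were called by these tools and 3 were under 0.05 unadjusted, with the chaperones Ptges3 at -0.12 (SE 0.04) and Hsp90aa1 at -0.16 (SE 0.07) at the lowest p. Of 12 glucocorticoid-repressed genes 0 were called by these tools and 1 was under 0.05 unadjusted. They were led by Il1a at -0.82 (SE 0.38), followed by Ccl7 at -0.50 (SE 0.42). Of the 12, 10 were negative, with a median of -0.22, where 49.8% of all genes tested were positive. The 10 macrophage markers were all negative too, with a median of -0.16 and 0 called, and the part of macrophage content was not tested. The lists of metal, p53, acute phase, growth factor, paralog and clock genes had 0 calls by any of the tools, and 0, 0, 1, 2, 0 and 1 genes under 0.05 unadjusted. These were Socs3 at -0.49 (SE 0.14), which feeds back on cytokine signalling, Spry2 at 0.25 (SE 0.08) and Egfr at -0.19 (SE 0.08), and the clock output gene Nfil3 at -0.56 (SE 0.25). The lowest p of the other lists belonged to Mtf1 at -0.04 (SE 0.06), Eda2r at 0.43 (SE 0.24), Tsc22d2 at 0.17 (SE 0.14) and Per1 at 0.47 (SE 0.24).

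The difference between the vector effects was tested as an interaction over all 29 libraries, since a call in heart and none in adipose tissue does not by itself show a difference. The tests also differ in spread. As a coefficient of variation, edgeR's common estimate was 0.105 in the heart fit, 0.355 in the adipose fit and 0.309 over all libraries. For Zbtb16 the vector effect in heart minus that in adipose tissue was 1.67 on the log2 scale (SE 0.38, unadjusted p = 0.000145, adjusted p = 0.168), and for Fkbp5 it was 1.46 (SE 0.40, unadjusted p = 0.00115, adjusted p = 0.289). Neither passed, and 0 of the 10 members were called with edgeR and with limma voom, while 4 of 16526 genes (0.0242%) were called with edgeR, 2 higher and 2 lower (0.0121% each). DESeq2 called both Zbtb16 (adjusted p = 0.00222) and Fkbp5 (adjusted p = 0.0192), among 189 genes in all. At an unadjusted p under 0.05 there were 4 members, Zbtb16, Fkbp5, Mt1 at 0.79 (SE 0.28) and Mt2 at 1.14 (SE 0.46), against 7.43% of all genes. Over 38 alternatives the adjusted p ran from 0.00222 to 0.312 for Zbtb16 and from 0.0192 to 0.499 for Fkbp5.

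**Figure D5:**
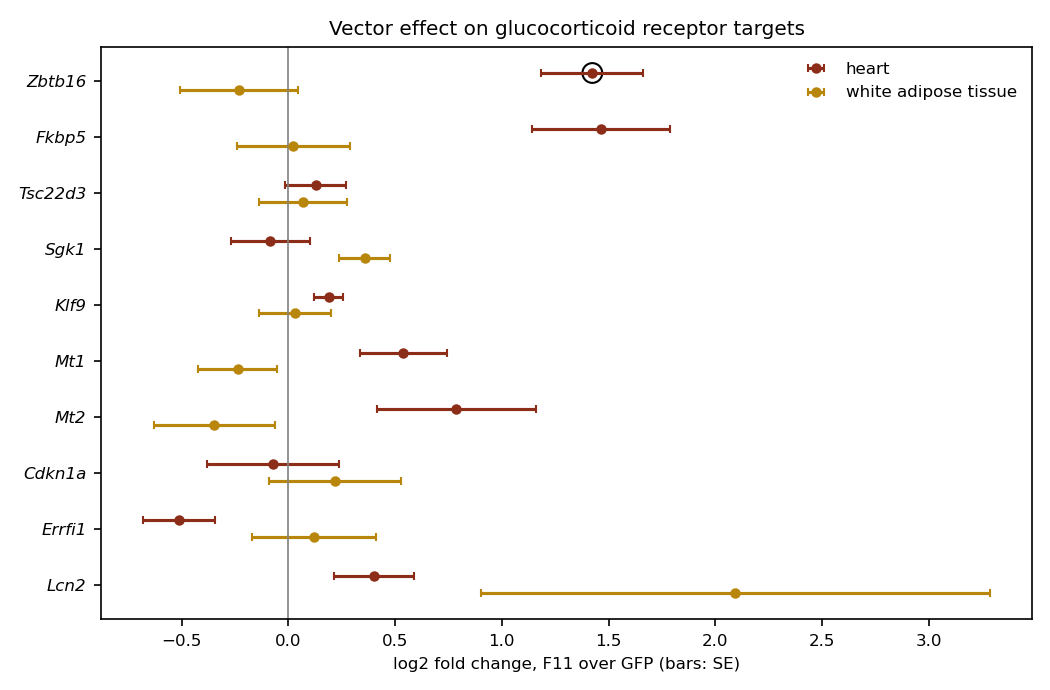
Log2 fold change, F11 over GFP, of the 10 genes in heart (dark red) and in white adipose tissue (gold), each from its own edgeR fit; whiskers are the SE, and the ring marks the 1 value past an adjusted p of 0.05, Zbtb16 in heart. In heart Zbtb16 and Fkbp5 lie at 1.42 and 1.46 and in adipose tissue at -0.23 and 0.02, and the adipose value of Lcn2 is 2.09, against -1.40 without L142.

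The members were then compared between tissues. Each was set heart over adipose tissue within a vector, on a scale over all 29 libraries on which the median gene had a log2 difference of -0.13 under F11 and -0.11 under GFP. Most genes differ between these tissues, 81.6% of those tested under F11 (36.6% higher and 45.0% lower in heart) and 80.2% under GFP (36.8% higher and 43.4% lower). Of the members 3 were higher and 6 lower under F11, and 1 was higher and 5 lower under GFP. Klf9 was higher in heart, at a log2 difference of 1.16 (SE 0.14) under F11 and 0.99 (SE 0.14) under GFP. Tsc22d3 was lower in heart, at -0.85 (SE 0.19) under F11 and -0.91 (SE 0.20) under GFP, and so was Cdkn1a, at -2.09 (SE 0.33) under F11 and -1.81 (SE 0.34) under GFP. Fkbp5 was lower in heart, at -0.61 (SE 0.28, adjusted p = 0.0439) under F11 and -2.07 (SE 0.31, adjusted p = 7.31e-07) under GFP. The F11 value of Fkbp5 did not hold without adipose library L142, at -0.38 (adjusted p = 0.166). Zbtb16 was higher in heart, at 1.82 (SE 0.26, adjusted p = 3.98e-07) under F11, and its difference was 0.16 (SE 0.27, adjusted p = 0.599) under GFP. The change in these tissue differences between vectors is the interaction above, which Fkbp5 and Zbtb16 did not pass with edgeR.

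The metallothioneins parted by tissue. Mt2 was lower in heart, at -1.88 (SE 0.33) under F11 and -3.02 (SE 0.37) under GFP, while Mt1 was higher in heart, at 0.80 (SE 0.19, adjusted p = 0.000458), under F11 and was at 0.01 (SE 0.20, adjusted p = 0.968) under GFP. The ratio of Mt1 to Mt2 CPM was 5.84 ± 1.46 in F11 hearts and 6.80 ± 1.42 in GFP hearts (SD, n = 7 and 6), and 0.862 ± 0.113 in F11 adipose tissue and 0.852 ± 0.293 in GFP adipose tissue (SD, n = 8 each). Their sequences are alike, and the counting divides reads that fit both by estimation, so the split between them is uncertain. Every heart library had a ratio of at least 4.13 and every adipose library one of at most 1.57, which was L140.

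The remaining tissue differences were those of Errfi1, Sgk1 and Lcn2. Errfi1 was lower in heart, at -0.81 (SE 0.26, adjusted p = 0.00501), under F11 and was at -0.19 (SE 0.26, adjusted p = 0.511) under GFP. Without the 7 adipose libraries richest in cardiomyocyte, epididymis or liver transcripts the F11 value of Errfi1 was -0.14 (adjusted p = 0.437). Sgk1 passed under neither vector, at -0.11 (SE 0.15, adjusted p = 0.488) under F11 and 0.32 (SE 0.15, adjusted p = 0.0566) under GFP. Lcn2 was lower in heart, at -5.02 (SE 1.13, adjusted p = 0.000226) under F11 and -3.38 (SE 1.16, adjusted p = 0.00987) under GFP. Without L142 the F11 difference of Lcn2 was -1.59 (adjusted p = 0.00877), and limma voom gave -1.24 (adjusted p = 0.112).

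Levels of different genes were compared as CPM per kilobase of the principal transcript, on the scale over all libraries. In hearts Mt1 was the most abundant member, at 186 ± 60.8 per kilobase in F11 hearts and 128 ± 25.3 in GFP hearts (SD, n = 7 and 6), and Lcn2 the least, at 2.36 ± 0.609 in F11 hearts and 1.78 ± 0.395 in GFP hearts. Klf9 and Tsc22d3 followed Mt1 in both vectors, at 53.6 ± 5.53 and 43.1 ± 9.46 per kilobase in F11 hearts and 47.0 ± 3.91 and 39.4 ± 5.28 in GFP hearts. Zbtb16 was the fifth in F11 hearts, at 35.96 ± 12.2 per kilobase, and the sixth in GFP hearts, at 13.4 ± 2.07, and Fkbp5 the seventh in F11 hearts, at 11.8 ± 5.75, and the ninth in GFP hearts, at 4.27 ± 0.462. In F11 hearts Tsc22d3, Mt2 and Zbtb16 did not differ beyond their spread, nor did Fkbp5 and Cdkn1a. In adipose tissue Mt2 and Mt1 led, at 138.4 ± 53.5 and 107 ± 31.6 per kilobase with F11 and 177 ± 59.0 and 127 ± 27.5 with GFP (SD, n = 8 each), again within their spread of each other. Tsc22d3 came next, at 77.2 ± 23.8 per kilobase with F11 and 74.1 ± 23.2 with GFP. Zbtb16 and Errfi1 had the lowest means in adipose tissue, at 10.1 ± 3.95 and 11.2 ± 4.67 per kilobase with F11 and 12.0 ± 5.46 and 10.4 ± 5.21 with GFP, and did not differ beyond their spread. The Lcn2 means there were 75.4 ± 193 per kilobase with F11 and 18.66 ± 14.95 with GFP. Among F11 adipose libraries Lcn2 ran from 2.40 to 553 per kilobase. The top value was that of L142, so the place of Lcn2 by its F11 mean leans on that library.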

How the data were processed

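Libraries of mRNA were sequenced, per the labels' protocols, from 30 heart and white adipose samples, of which 29 are in the deposited table and 1 GFP heart was not analysed here. The authors deposited estimated counts per gene ID. The submitters' processing notes name kallisto 0.46 and GRCm38.p6. The annotation release, the strand setting and how transcripts were summed are details not given in the sources used here. Over all values of the 29 libraries, 30.8% were not whole (tolerance 1e-06), so estimated counts were rounded before the count tests. Of 36558 IDs, 35856 had a symbol.

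Groups came from the labels. edgeR 4.0.16 in R 4.3.3 was used with TMM scaling, filterByExpr and quasi-likelihood tests, in heart alone, in adipose tissue alone, and over all 4 groups for the interaction and for tissues within a vector. P-values were adjusted by Benjamini-Hochberg over all genes tested, with a threshold of 0.05, and the SE is the log2 fold change divided by the root of F. CPM are on the TMM scale of the tissue, or of all libraries where levels per kilobase are given. Alternatives were RLE scaling, no filter, a mean CPM of at least 1, DESeq2 1.42.0, limma 3.58.1 voom with quality weights on unrounded counts, mitochondrial genes left out, 1 fit over 4 groups, and each library left out. Fits without L140 and L142, without the 7 adipose libraries richest in cardiomyocyte, epididymis or liver markers and without L8 and L40 were chosen after seeing the data. The vector tests within heart and within adipose tissue were checked on simulated counts, and those of the interaction and of tissues were not. In heart the test recovered 44% of 1.25-fold, 80% of 1.5-fold and 98% of 2-fold changes. In adipose tissue it recovered 10%, 44% and 70% of these, so most changes under 1.5-fold would be missed there. False calls were 5 of 163 in heart and 4 of 110 in adipose tissue. DESeq2 replaced counts it took for outliers in 482 genes of the adipose fit, among members only that of Lcn2 in L142. Promoters are from RefSeq (GRCm38.p6), gene positions and principal transcript lengths from GENCODE vM21.

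Members and gene lists were chosen with earlier results of these data known. The rule for named genes took all 10 members, up to 6 called genes of each other list by lowest p (the 2 with the lowest p where none was called), the 3 genes most alike to each member, and the 3 highest and 3 lowest member pairs per tissue, and the text prints these in part for the most alike genes and the adipose lists. Correlations used Pearson's r and Spearman's rho with 100000 two-sided permutations (Python 3.11.15, numpy 2.4.6, scipy 1.17.1), adjusted over 45 pairs; figures used matplotlib 3.10.9. Library totals ran from 15949550 to 33022539 estimated counts, which limits the precision of low genes.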

Additional observations from a re-analysis of the deposited data

Results flagged for a closer look

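Of 40 groups of libraries tested for a sample far from the rest (10 genes in 4 groups), 6 held one, and chance flags about 1 in 20. In hearts, Mt2 was 27.75 CPM in F11 library L40, where the next highest F11 heart had 14.87 CPM. Tsc22d3 was 67.68 CPM in GFP heart L8, where the next had 54.07 CPM. L40 and L8 are the hearts with the most red cell transcripts.

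In adipose tissue, Lcn2 was 708.5 CPM in F11 library L142, where the next F11 library had 25.51 CPM, and L142 is the library with epididymis and testis transcripts. Mt2 was 31.68 CPM in GFP library L140, where the next lowest GFP library had 101.2 CPM. Cdkn1a was 14.19 CPM in L140, where the next lowest had 83.99 CPM, and L140 is the library with cardiomyocyte transcripts. Errfi1 was 93.51 CPM in GFP library L136, where the next highest had 48.77 CPM, and L136 has the highest sum of liver markers, 7094 CPM. The part of these transcripts in the values was not tested.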

How the results depend on the processing

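In heart, the 1 member called became 3 with DESeq2 and 2 with all 4 groups in 1 fit, and 1 to 2 with a library left out, the second being Fkbp5 without L31 or without L36. The 128 genes called became 373 with DESeq2, 201 with limma voom, 30 with all 4 groups in 1 fit and 87 to 179 with a library left out. In adipose tissue the 0 genes called became 11 with DESeq2 and 4 with all 4 groups in 1 fit. In the interaction the 0 members called became 2 with DESeq2. Its 4 genes called became 2 with no filter, 189 with DESeq2, 24 with limma voom, 9 without L140 and L142, 8 without the 7 adipose libraries richest in cardiomyocyte, epididymis or liver markers, 1 without L8 and L40, and 1 to 6 with a library left out. Among tissue differences, 6 to 7 members were called under GFP and 8 to 9 under F11 with a library left out.

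Signs turned for values near 0 and for Lcn2, none of them called. In adipose tissue Lcn2 was -1.29 with DESeq2, -0.72 with limma voom, -1.20 without L140 and L142 and -1.47 without the 7 libraries, and Zbtb16 was 0.095 with limma voom and 0.16 without the 7. Fkbp5 was -0.26 without L140 and L142, and Cdkn1a was -0.043 and Errfi1 -0.14 without the 7. In the interaction (for Lcn2, vector effect in heart minus vector effect in adipose tissue) Lcn2 was 1.88 with DESeq2, 1.03 with limma voom, 1.58 without L140 and L142 and 1.865 without the 7, Tsc22d3 was -0.073 with limma voom and -0.08 without the 7, and Klf9 was -0.021 with limma voom. For heart over adipose tissue under GFP, Mt1 was -0.012 with no filter, -0.078 with limma voom, -0.042 without L140 and L142 and -0.093 without L8 and L40, and Errfi1 was 0.085 with limma voom and 0.23 without the 7. With a library left out, heart values ran from -0.15 to 0.06 for Sgk1 and from -0.30 to 0.092 for Cdkn1a. Adipose values ran from -0.225 to 0.12 for Fkbp5, -0.045 to 0.19 for Tsc22d3, -0.059 to 0.12 for Klf9, -0.009 to 0.39 for Errfi1 and -1.40 to 2.35 for Lcn2. Interaction values ran from -0.051 to 0.18 for Tsc22d3 and -1.88 to 1.79 for Lcn2, and tissue values under GFP from -0.094 to 0.085 for Mt1 and -0.31 to 0.074 for Errfi1. DESeq2 had replaced the Lcn2 count of L142. The cause was not tested.

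The F11 tissue difference of Fkbp5 lost its call in 9 of 29 fits with a library left out, and that of Sgk1 under GFP gained one in 7 of 29. Under GFP, Zbtb16 was called without the 7 adipose libraries, at 0.66 (adjusted p = 0.0282). No paired analysis was possible because the labels do not say which libraries came from the same mouse. The fits over both tissues treat all libraries as independent, and any pairing of heart and adipose tissue within a mouse is ignored. Depth limits Lcn2 in heart most, at 0.733 to 2.08 CPM.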

Other observations

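Per2 and Arntl did not overlap between the vectors in heart. Per1, a clock gene that is also on the list of other glucocorticoid-induced genes, did overlap. It ranged from 39.18 to 68.02 CPM in F11 hearts and from 36.94 to 51.33 CPM in GFP hearts (edgeR, adjusted p = 0.384). Per2, a repressor of the clock, ranged from 16.08 to 27.27 CPM in F11 hearts and from 5.77 to 11.1 CPM in GFP hearts. Arntl, which encodes BMAL1, ranged from 2.38 to 5.11 CPM in F11 hearts and from 9.21 to 13.1 CPM in GFP hearts. In adipose tissue both overlapped between vectors, with Per2 at 21.36 to 53.48 CPM in F11 libraries and 20.4 to 52.99 CPM in GFP libraries, and Arntl at 4.23 to 14.4 CPM in F11 libraries and 4.25 to 16.5 CPM in GFP libraries. F11 heart L31, the library within the GFP range for Zbtb16 and Fkbp5, was above every GFP heart for Hif3a, which was 1.61 CPM there and at most 1.02 CPM in GFP hearts.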
